A study of Mus musculus with 18 samples.

Results

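The kinases and ubiquitin enzymes that act on clock proteins are represented here by 6 genes, which were chosen by name among the 32285 genes of the count matrices. They are the casein kinase 1 genes Csnk1d and Csnk1e, the glycogen synthase kinase 3 gene Gsk3b, the F-box protein genes Btrc and Fbxw11, and the deubiquitinase gene Usp2. All 6 were found. Single cells of the dorsal dermis of 18 mice were profiled with the 10x Genomics Chromium 3' v3 droplet assay, 1 library per mouse, at zeitgeber times (ZT, hours after lights on) ZT2, ZT6, ZT10, ZT14, ZT18 and ZT22, with 3 mice at each time. The mice were wild-type C57BL/6J males of about 54 days, an age given in the study's methods and chosen for resting (telogen) hair follicles, and were kept under 12 h of light and 12 h of dark. All groups thus share genotype, strain, sex, age and light cycle and differ in the time of day of collection. Each of the 3 days of collection gave 1 mouse to each zeitgeber time. Live cells were sorted after collagenase digestion, and the 3 mice of a zeitgeber time came from 3 different days, so mouse and day cannot be told apart.

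In the mammalian clock, the PER and CRY proteins accumulate, enter the nucleus and repress their own transcription, and the length of the cycle depends on how fast they are degraded. Casein kinase 1 delta and epsilon, the products of Csnk1d and Csnk1e, phosphorylate PER proteins. Phosphorylated PER is bound by the beta-TrCP proteins, encoded by Btrc and Fbxw11, which present it to an SCF ubiquitin ligase for degradation. GSK3 beta phosphorylates several clock proteins, and USP2 removes ubiquitin from clock proteins. Usp2 is known as a gene with rhythmic mRNA in several tissues, whereas the kinases are known mainly for control of their protein products, which these data do not measure.

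Per library, 4850221 to 40827442 UMIs (unique molecular identifiers, 1 per captured transcript) were counted, and 16877 of 23990 barcodes passed the filter on cells. Of these, 12691 cells were fibroblast-like and 3375 were immune-like by their marker genes. The UMIs of the cells of a type were added up within each library to give pseudobulks, the smallest of which, both from ZT18 replicate 1, held 2936649 UMIs for fibroblasts and 481549 for immune cells. Levels are given as UMIs per 10000 UMIs of the pseudobulk, so each level is a share of the RNA captured. The 6 fibroblast markers summed to 632 to 1095 per 10000 in fibroblasts and 2.68 to 56.4 in immune cells, and the 10 immune markers to 0.0579 to 0.258 and 176 to 307. Before any comparison, 2 libraries stood apart: ZT6 replicate 2 and ZT10 replicate 3 shared 89 barcodes, 13.8% of the smaller library, none of which passed the filter in both. In any other pair of libraries, at most 4 barcodes were shared. In ZT14 replicate 1, 33.7% of the immune cells were neutrophil-like, against at most 7.84% elsewhere.

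No 24 h rhythm of the 6 genes passed the test in fibroblasts. A 24 h cosine was fitted to the counts and tested by edgeR's quasi-likelihood method with p-values adjusted (Benjamini-Hochberg) over 12465 genes, and 0 of the 6 genes passed an adjusted p of 0.05, against 13.1% of all genes tested. At an unadjusted p under 0.05, 1 of the 6 passed, against 29.0% of all genes. The median log2 amplitude of the 6 genes was 0.09, against 0.13 over all genes tested. The same libraries carried a strong clock: all 11 reference clock genes passed, among them Dbp with a log2 amplitude of 2.89 and a peak at 9.88 h, Arntl, Per1, Per2, Per3, Cry1 and Nr1d1.

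**Figure D1:**
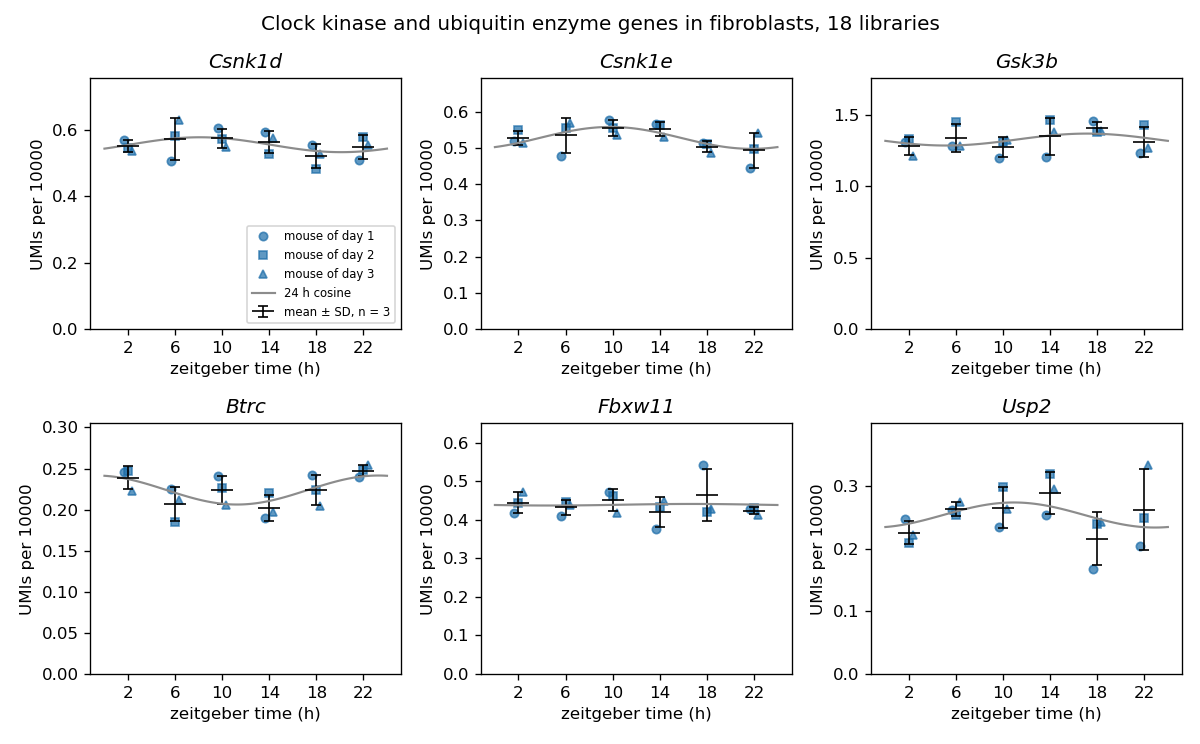
UMIs per 10000 in fibroblasts (y, from 0) against zeitgeber time in hours (x) for the 6 genes. Each symbol is a library, by day of collection, black bars give the mean ± SD of 3 mice and the grey line is the 24 h cosine; the fitted amplitude was at most 7.88% of the mean level.

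Csnk1e came closest to a rhythm in fibroblasts. Its level was 0.577, 0.554 and 0.535 in the 3 libraries of ZT10 and 0.443, 0.496 and 0.540 in those of ZT22. The ranges of ZT10 and ZT22 overlapped, because ZT22 replicate 3, at 0.540, lay above the lowest ZT10 library, at 0.535. The means were 0.555 ± 0.0209 at ZT10 and 0.493 ± 0.0484 at ZT22 (SD, n = 3), the highest and the lowest of the 6 times. The fitted amplitude was 0.0302 ± 0.0117 (jackknife SE, n = 18), or 5.73% of the mean level, with a peak at 9.81 ± 1.18 h. In edgeR the unadjusted p was 0.0134 and the adjusted p 0.0772. Other analyses put the gene past the threshold: DESeq2 gave an adjusted p of 0.0225, edgeR gave 0.0492 without ZT6 replicate 1 and 0.0435 without ZT22 replicate 3, and the rank-based JTK_Cycle gave an unadjusted p of 0.0161. The adjusted p was 0.129 without the libraries that shared barcodes and 0.342 with zeitgeber time as a factor (edgeR). JTK_Cycle called 1 of the 6 genes in fibroblasts, against 14.4% of all genes tested.

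Csnk1d, the paralog of Csnk1e, ranged from 0.483 to 0.629 with a median of 0.555. Its highest mean, 0.575 ± 0.0289 at ZT10, and its lowest, 0.521 ± 0.0361 at ZT18 (SD, n = 3), belonged to groups that overlapped. The amplitude was 0.0224 ± 0.0139 and the adjusted p 0.234 (edgeR). Over the 18 fibroblast pseudobulks, Csnk1d and Csnk1e varied together (Pearson r = 0.68), the highest of the 15 pairs among the 6 genes, which otherwise ran from -0.42 for Fbxw11 and Usp2 to 0.38. These libraries share their sequencing depth and cell makeup between genes, and the correlations are a description only.

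Gsk3b ranged from 1.20 to 1.46 with a median of 1.31. The 3 libraries of ZT18 had 1.46, 1.38 and 1.39, and those of ZT10 had 1.20, 1.31 and 1.32, so that the highest and lowest groups did not overlap. The cosine had an amplitude of 0.0417 ± 0.0311, and its adjusted p was 0.905 (edgeR). Without ZT6 replicate 2 the amplitude was 0.0634. Over the 18 fibroblast pseudobulks, the level of Gsk3b ran with the summed muscle markers (Pearson r = 0.56) and red blood cell markers (r = 0.50). The muscle markers also ran with Csnk1e (r = 0.48) and against Btrc (r = -0.53), and their part in these levels was not tested.

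Of the beta-TrCP genes, Btrc had the clearer time course. The libraries of ZT22 had 0.240, 0.248 and 0.254, all above the 0.189, 0.220 and 0.198 of ZT14. The amplitude was 0.0176 ± 0.00605, 7.88% of the mean, with a peak at 23.3 ± 1.47 h, and the adjusted p was 0.223 (edgeR). Fbxw11 ranged from 0.376 in ZT14 replicate 1 to 0.541 in ZT18 replicate 1, its means at the 6 times lay within a factor of 1.10, and its adjusted p was 0.897.

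Usp2 varied most of the 6 between libraries, with a coefficient of variation of 16.2%. The libraries of ZT14 had 0.253, 0.319 and 0.294, and those of ZT18 had 0.167, 0.239 and 0.242, so all of ZT14 lay above all of ZT18, only 4 h later. The level did not fall evenly with time, since ZT22 held both a low library (0.205) and the highest of all 18 (0.333). The amplitude was 0.0200 ± 0.0156, the peak lay at 10.9 ± 2.63 h and the adjusted p was 0.386 (edgeR). Without ZT22 replicate 3 the amplitude was 0.0329 and the adjusted p 0.0504, still above the threshold. Muscle-like cells carried more Usp2 than fibroblasts. The 6 muscle markers summed to 0.296 per 10000 in the pooled fibroblasts, 0.0151% of their level in muscle-like cells. Across all 6 genes, 3 had highest and lowest zeitgeber groups that did not overlap, against 62.3% of all genes tested in fibroblasts.

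How large a rhythm these data could have missed can be read from the 95% region of the cosine fitted to log2 levels by least squares. In fibroblasts the peak level was at most 1.16-fold the trough for Fbxw11, 1.20-fold for Gsk3b, 1.22-fold for Csnk1d, 1.25-fold for Csnk1e, 1.36-fold for Btrc and 1.60-fold for Usp2. For Per1 the log2 amplitude in this fit was 0.49, with a region from 0.18 to 0.79. Cry2, the called reference clock gene with the smallest amplitude in edgeR, had 0.21, which lies below the upper limits of Btrc (0.22) and Usp2 (0.34). The regions of Csnk1e, from 0.01 to 0.16, and Btrc, from 0.00473 to 0.22, left out 0, and those of the other 4 genes reached it. These regions are not adjusted over genes, and in edgeR the unadjusted p of Btrc was 0.0759.

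**Figure D2:**
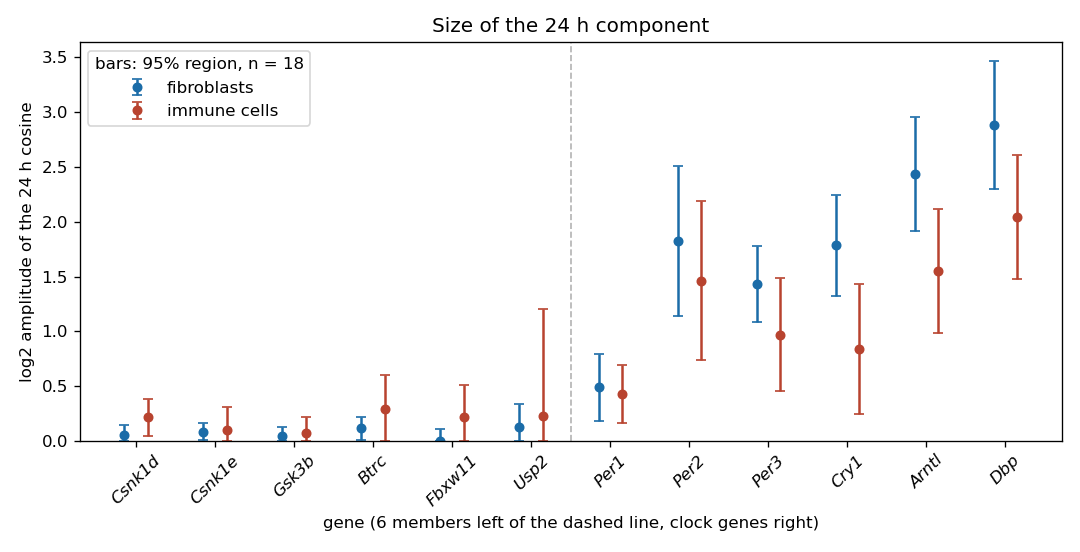
Log2 amplitude of the 24 h cosine (y) for the 6 genes and 6 clock genes (x) in fibroblasts (blue) and immune cells (red), with bars for the 95% region over 18 libraries. The fitted amplitudes of the 6 genes are at most 0.29, and those of the 6 clock genes shown are at least 0.43. In immune cells the bars of Btrc, Fbxw11 and Usp2 reach 0.60, 0.51 and 1.20, above the fitted 0.43 of Per1. Reference clock genes of smaller amplitude, such as Cry2, are not shown.

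In immune cells, the question of rhythm was answered with less depth. The median count per pseudobulk was 163 UMIs for Csnk1d, 83 for Csnk1e, 227 for Gsk3b, 23 for Btrc, 68.5 for Fbxw11 and 4 for Usp2, and Usp2 did not pass the filter on low counts. Of the other 5 genes, 0 passed in edgeR, against 0.098% of 10199 genes (10 genes), and 1 had an unadjusted p under 0.05, against 7.85%. The median log2 amplitude of the 5 genes was 0.20, against 0.15 over all genes tested. JTK_Cycle called 0 of the 5, against 3.98% of all genes, and DESeq2 called 0 as well. In the cosine fitted to log2 levels by least squares, the 95% regions were wider than in fibroblasts. The peak was at most 1.36-fold the trough for Gsk3b, 1.54-fold for Csnk1e and 1.71-fold for Csnk1d. It was at most 2.02-fold for Fbxw11, 2.29-fold for Btrc and 5.28-fold for Usp2. The region of Csnk1d, from 0.05 to 0.39 in log2 amplitude, left out 0, without adjustment over genes. Of the 11 clock genes, 6 passed in edgeR: Dbp, Nr1d1, Nr1d2, Arntl, Per2 and Per3.

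In immune cells the smallest p of the 5 genes belonged to Csnk1d, with an unadjusted value of 0.0105 and an adjusted value of 0.592 in edgeR. The libraries of ZT2 had 0.709, 0.740 and 0.750 per 10000, and those of ZT18 had 0.581, 0.472 and 0.421. The means were 0.733 ± 0.0212 and 0.492 ± 0.0820 (SD, n = 3), a ratio of 1.49, and no ZT18 library reached any ZT2 library. The amplitude was 0.0892 ± 0.0289, 13.8% of the mean level, with a peak at 6.41 ± 1.04 h. In macrophage-like cells alone, the ZT18 libraries had 0.814, 0.396 and 0.375, so that ZT18 replicate 1, with 22 UMIs of the gene there, was the highest of all 18 and the other 2 the lowest. Over the 18 immune pseudobulks, the level of Csnk1d also ran with their total UMIs (Pearson r = 0.52, Spearman rho = 0.57), and the part of depth in its time course was not tested.

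ZT18 was also the lowest time for other members in immune cells. Gsk3b had 0.768, 0.797 and 0.859 at ZT18 and 1.00, 1.12 and 0.997 at ZT14, its highest time. In macrophage-like cells alone Gsk3b was not lowest at ZT18, where it had 1.04, 0.999 and 1.01, against 0.893, 1.08 and 1.05 at ZT2. The lower mean at ZT2 rests on the library at 0.893. Btrc and Fbxw11 kept their lowest mean at ZT18 in macrophage-like cells. Btrc had 0.111, 0.0754 and 0.0750 there, from 3, 4 and 6 UMIs, and Fbxw11 had 0.185, 0.207 and 0.275. Over all immune cells, Btrc had 0.0623, 0.0591 and 0.0770 at ZT18, from 3, 6 and 13 UMIs, against a mean of 0.131 ± 0.0464 at ZT10. Fbxw11 had 0.166, 0.276 and 0.249 at ZT18 and 0.440, 0.378 and 0.459 at ZT10. In these 3 genes too the highest and the lowest group did not overlap, which made 4 of the 5 genes tested, against 41.1% of all genes tested in immune cells. The adjusted p of the cosine was 0.860 for Gsk3b, 0.861 for Btrc and 0.730 for Fbxw11 (edgeR). Csnk1e differed: its ZT18 libraries, at 0.415, 0.423 and 0.308, lay among the others, and its highest mean was 0.485 ± 0.0544 at ZT10. The ZT18 immune pseudobulks were among the smallest, at 481549, 1016007 and 1687442 UMIs, and their part in the low ZT18 levels was not tested.

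**Figure D3:**
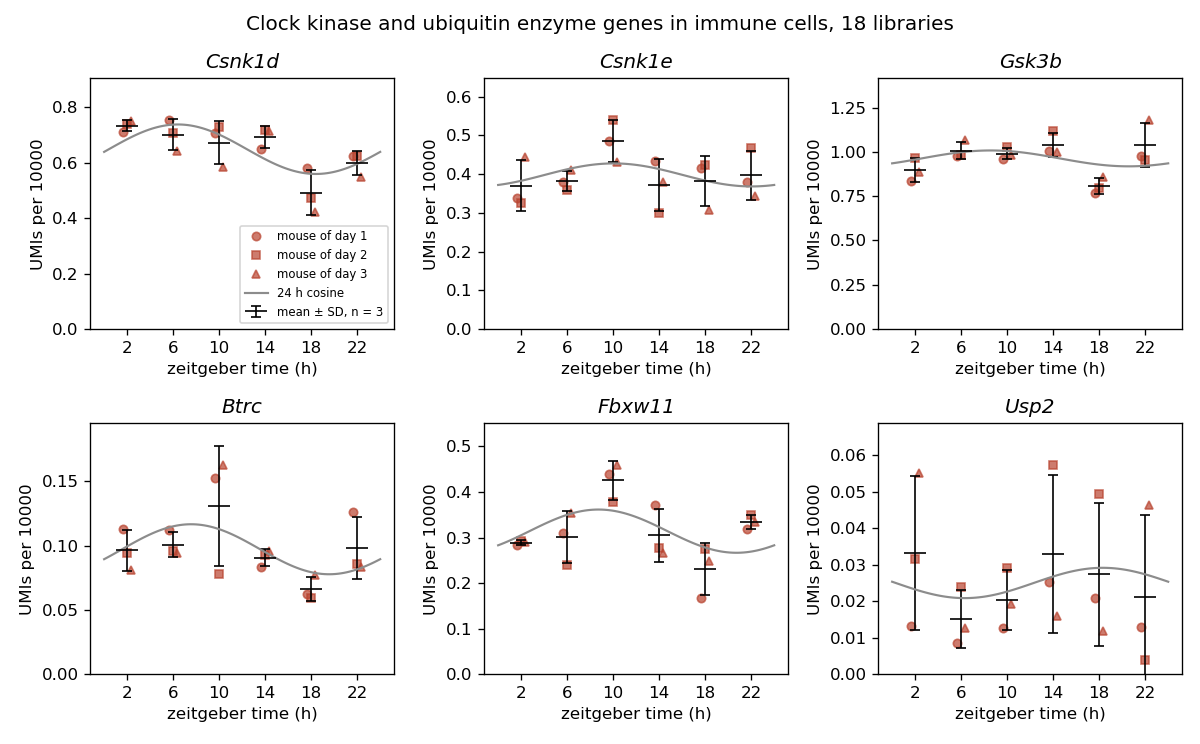
UMIs per 10000 in immune cells (y, from 0) against zeitgeber time in hours (x), with symbols by day of collection, black bars for the mean ± SD of 3 mice and a grey 24 h cosine. Csnk1d, Gsk3b, Btrc and Fbxw11 have their lowest mean at ZT18, and the Usp2 points rest on 1 to 32 UMIs each.

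The peak times of the immune fits lay between 6.41 h for Csnk1d and 10.0 h for Csnk1e in the 5 genes tested, with standard errors of 1.04 to 3.24 h. In fibroblasts the peaks were at 8.11 ± 1.95 h for Csnk1d and 9.81 ± 1.18 h for Csnk1e. Those of Gsk3b and Btrc were at 17.2 ± 2.87 h and 23.3 ± 1.47 h, against 8.57 ± 3.24 h and 7.56 ± 1.63 h in immune cells. The fibroblast peak of Fbxw11 was not placed, with a standard error of 17.1 h. A difference in rhythm was tested through the interaction of cell type with the cosine terms, each library serving as its own block. Of the 6 genes, 0 passed in edgeR, against 0.26% of 13449 genes, and 0 had an unadjusted p under 0.05, against 8.22%. DESeq2 called 0 of the 6 as well. The smallest unadjusted p was 0.215, for Csnk1d. Usp2 entered this test through its fibroblast counts, since it did not pass the low-count filter in immune cells. With a median of 4 UMIs per immune pseudobulk, its result here says little about a difference in rhythm.

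The level of all 6 genes, in contrast, differed between fibroblasts and immune cells. Averaged over the day and compared within libraries, 6 of 6 passed in edgeR, against 84.0% of 13449 genes, so that passing is common among all genes. Lower in immune cells were 5 of the 6, against 42.4% of all genes, and higher was 1, against 41.7%. The median log2 difference, immune cells minus fibroblasts, was -0.52 over the 6 genes and -0.01 over all genes tested. Without the libraries that shared barcodes, 6 of 6 still passed, with log2 differences from -3.38 for Usp2 to 0.16 for Csnk1d.

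Csnk1d was the gene with a larger share of the captured RNA in immune cells than in fibroblasts. Its level had a median of 0.677 (range 0.421 to 0.753) in immune cells and 0.555 (0.483 to 0.629) in fibroblasts, and it was higher in immune cells in 15 of 18 libraries. The log2 difference was 0.17 ± 0.05 (SE, adjusted p = 0.0054, edgeR). With macrophage-like cells as the immune cells it was 0.11 (adjusted p = 0.111), and with no filter on low counts 0.08 (adjusted p = 0.222), so the call was lost in both.

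Csnk1e went the other way. Its level in immune cells had a median of 0.395 (0.299 to 0.539), against 0.533 (0.443 to 0.577) in fibroblasts, and it was lower in 18 of 18 libraries. The log2 difference was -0.47 ± 0.06 (adjusted p = 1.9e-07, edgeR). The ratio of Csnk1d to Csnk1e UMIs needs no scaling for depth, and it had a median of 1.05 (0.938 to 1.17) in fibroblasts and 1.58 (1.12 to 2.40) in immune cells. The ratio was higher in immune cells in 18 of 18 libraries, with a mean log2 difference of 0.63 ± 0.08 (SE).

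Gsk3b was lower in immune cells in 18 of 18 libraries, and the ranges did not overlap, at 0.768 to 1.18 in immune cells and 1.20 to 1.46 in fibroblasts. The log2 difference was -0.52 ± 0.05 (adjusted p = 1.6e-09, edgeR).

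Both beta-TrCP genes were lower in immune cells, and to unequal extents. Btrc had a median of 0.0935 (0.0591 to 0.163) in immune cells and 0.225 (0.185 to 0.254) in fibroblasts, with no overlap and a log2 difference of -1.26 ± 0.08 (adjusted p = 4.1e-13, edgeR). Fbxw11 had medians of 0.301 and 0.432 and overlapped, with a log2 difference of -0.52 ± 0.08 (adjusted p = 1.3e-06), and it was lower in 17 of 18 libraries. The ratio of Fbxw11 to Btrc had a median of 1.98 (1.63 to 2.42) in fibroblasts and 3.05 (2.50 to 4.88) in immune cells. It was higher in immune cells in 18 of 18 libraries, by 0.73 ± 0.09 on the log2 scale (SE). Both ratios restate the level differences and carry no test of their own.

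**Figure D4:**
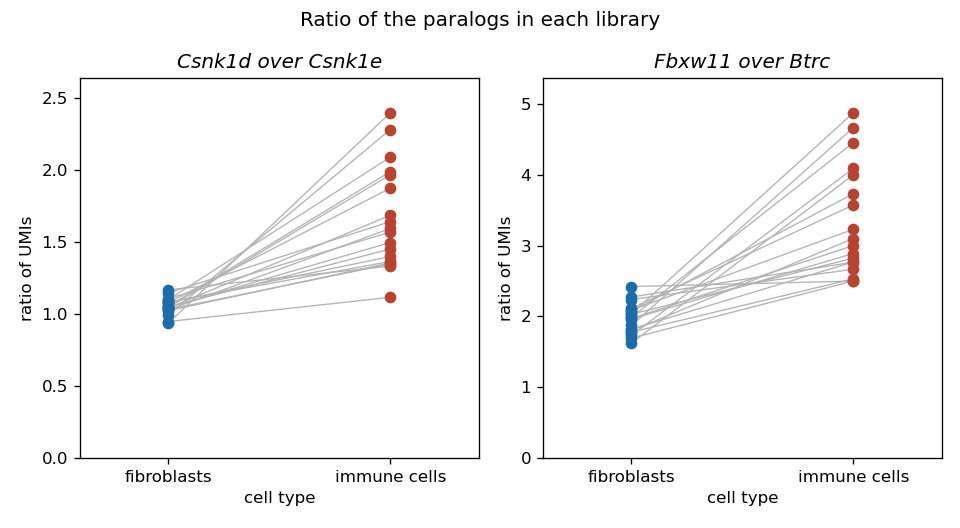
Ratio of UMIs (y, from 0) of Csnk1d over Csnk1e and of Fbxw11 over Btrc in fibroblasts and immune cells (x), with 1 point per library and a grey line joining the cell types of a library. All 18 lines rise from fibroblasts to immune cells in both panels.

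Usp2 had the largest difference of the 6. Its level was 0.167 to 0.333 in fibroblasts, with a median of 0.251, and 0.00389 to 0.0572 in immune cells, with a median of 0.0199. No library of one cell type reached the range of the other, and the log2 difference was -3.38 ± 0.17 (adjusted p = 2.2e-15, edgeR). In the pooled cells, 34.6% of fibroblasts and 2.31% of immune cells had a UMI of Usp2, at median depths of 21896 and 10984 UMIs per cell. Fibroblast markers in immune cells stood at 2.41% of their level in fibroblasts, and Usp2 at 10.3%. In macrophage-like cells, the markers stood at 2.91% and Usp2 at 3.86%. In 990 immune cells led by Cd74, H2-Aa and Lyz2, which had 4 of 5 monocyte and 5 of 7 macrophage markers, the markers of fibroblasts stood at 1.42% and Usp2 at 14.75%, from 55 UMIs. In NK or innate lymphoid-like cells these values were 2.39% and 29.0%, from 17 UMIs. In neutrophil-like cells they were 2.24% and 61.4%, from 11 UMIs, and in mast-like cells 0.305% and 53.1%, from 4 UMIs. Of the 149 neutrophil-like cells, 61.7% came from 1 library, and the mast-like cells numbered 54. The part of fibroblast RNA carried over into immune cells in these Usp2 values was not tested.

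**Figure D5:**
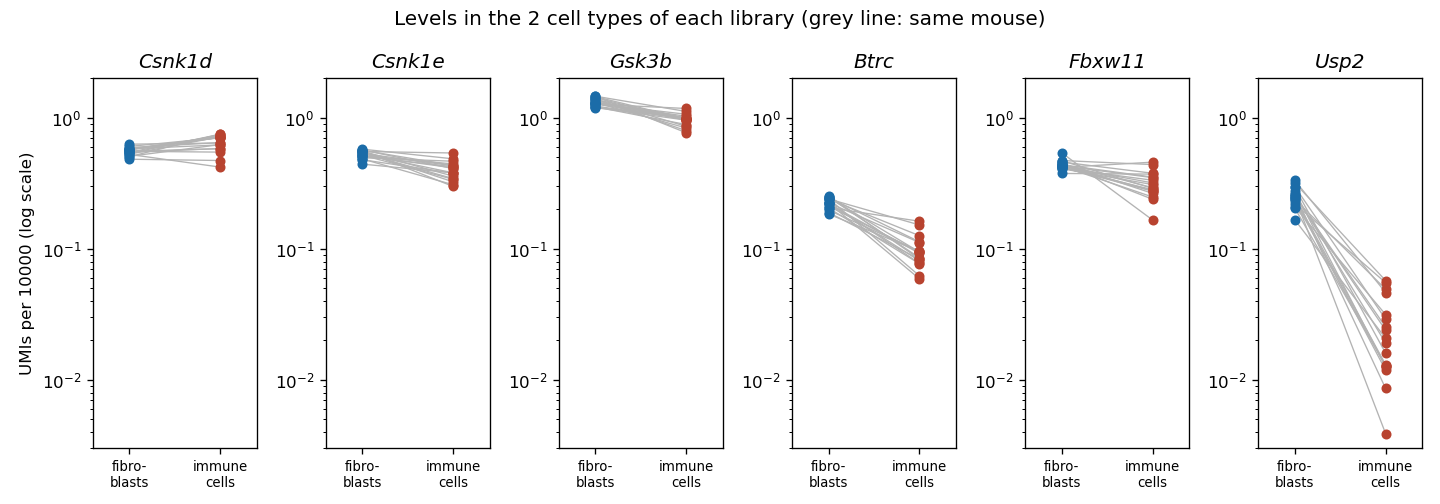
UMIs per 10000 (y, log scale) of the 6 genes in fibroblasts (blue) and immune cells (red) of each library, joined by a grey line. Gsk3b, Btrc and Usp2 do not overlap between the cell types, Csnk1d is the gene that is mostly higher in immune cells, and the heights of different genes are not to be compared, since capture can differ between transcripts.

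Within each class the levels also varied, as a description without a test. Among the 10 fibroblast clusters of at least 500 cells, pooled Gsk3b ran from 0.885 to 1.45 and Usp2 from 0.163 to 0.345. The low Gsk3b value was that of 775 cells led by Col1a1, Col1a2 and Col3a1, in which 13 libraries had 0.734 to 1.11. Among immune cells, Gsk3b stood at 1.09 in macrophage-like cells and 0.752 in the 990 cells led by Cd74, H2-Aa and Lyz2. For Csnk1e these values were 0.383 and 0.485, in the opposite order, and NK or innate lymphoid-like cells had 0.209 from 48 UMIs. Btrc stood at 0.107 and 0.0630 in the same cells, and Fbxw11 at 0.328 and 0.324. Csnk1d stood at 0.652 in macrophage-like and 0.730 in NK or innate lymphoid-like cells. The muscle-like cells, which entered no comparison, had 0.238 of Csnk1d and 0.131 of Fbxw11, less than any pseudobulk of fibroblasts or immune cells. Their pooled Btrc was also below every such pseudobulk, from 0 to 5 UMIs per library.

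Other genes of the same machinery were read from lists of 39 genes, 38 of which were tested in fibroblasts. In fibroblasts 4 of the 38 passed the rhythm test in edgeR, against 13.1% of all genes tested. Among them were Csnk1g2, another casein kinase 1 gene (log2 amplitude 0.13, peak 3.50 h, adjusted p = 0.0398), Mapk9, a JNK kinase gene (0.13, 21.9 h, adjusted p = 0.0387), and Spsb4, an adaptor of a ubiquitin ligase (0.62, 17.8 h, adjusted p = 0.0190). By list, 1 of 4 other casein kinase 1 genes, 1 of 11 other kinases, 2 of 14 ubiquitin ligase genes, 0 of 3 deubiquitinases and 0 of 6 phosphatases passed. In immune cells 0 of 36 tested passed, against 0.098% of all genes. The rhythm difference was passed by 0 of 38, against 0.26%. None of the 10 genes of dissociation stress passed the rhythm test in either cell type.

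In level, 32 of these 38 genes passed, 22 lower and 10 higher in immune cells. Passing was as common among all genes tested (84.0%), of which 42.4% were lower and 41.7% higher. Of the other casein kinase 1 genes, 3 of 4 were lower, namely Csnk1g2 (log2 difference -0.48), Csnk1g3 (-0.29) and Csnk1g1 (-0.28). Of the other kinases, 7 of 11 were lower, led by Prkca (-2.63), Prkaa2 (-4.80) and Csnk2a1 (-0.72), and 2 were higher, Dyrk1a (0.77) and Csnk2b (0.45). Of the ubiquitin ligase genes, 9 of 14 were lower, led by Ddb1 (-1.37), Stub1 (-0.80) and Spsb1 (-4.19), and 4 were higher, led by Siah2 (2.82), Mdm2 (1.50) and Fbxw7 (1.49). The deubiquitinase genes Usp14 (0.41) and Usp7 (0.29) were higher and Usp9x (-0.18) was lower. Of the 6 phosphatase genes, Ppp1ca (0.62) and Ppp2ca (0.55) were higher and Ppp2cb (-0.76) and Ppp1cb (-0.25) lower.

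The genes whose levels ran most alike to each member over the 18 fibroblast pseudobulks were named by Pearson correlation of log2 CPM, among 5568 genes. For Csnk1e they were Srpk2 (r = 0.78), Vasn (0.77) and the clock gene Nr1d1 (0.77). For Csnk1d they were Sertad1, Rela and Mafg (0.74 to 0.73), and for Gsk3b Tnrc6c, Scmh1 and Atf7 (0.86 to 0.78). For Btrc they were Arhgef7, Il1rap and Slc38a4 (0.85 to 0.80), for Fbxw11 Arrdc3, Hfe and Gga1 (0.83 to 0.77), and for Usp2 Khdc4, Setd1b and Epn2 (0.80 to 0.79). For each member, 1 in 100 genes exceeded an r of 0.59 to 0.65. The genes named lie above that because they were picked as the highest, and how often such values arise over 18 libraries was not tested.

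On the GRCm38 (mm10) build, GENCODE vM21 places Csnk1d at chr11:120961749-120991330 and Csnk1e at chr15:79417856-79455566, both on the minus strand. On the plus strand are Gsk3b (chr16:38089001-38246084), Btrc (chr19:45363734-45530013), Fbxw11 (chr11:32642724-32746816) and Usp2 (chr9:44067021-44095627). Genes on the opposite strand overlap Usp2, Csnk1d and Csnk1e, and they held 1 to 168 UMIs in all fibroblasts together, against 7091 for Usp2. Others overlap Gsk3b (Gm27931) and Btrc (Gm6807), and their counts were not analysed here. RefSeq promoter windows of 300 bases around a start site were at hand for Csnk1e, Gsk3b, Fbxw11 and Usp2. They were searched on both strands for the E-box CACGTG, the E'-box CACGTT and the D-box TTATGTAA or TTACGTAA, through which clock proteins act on their target genes. None of the windows of these 4 genes held one of them, against 6 of 10 reference clock genes with a window, and 7.15%, 4.68% and 1.06% of all 32851 windows held an E-box, an E'-box and a D-box. No match says only that these letters are absent from the window. The Usp2 window is shown, as that of the gene with the largest difference between cell types. It lies at chr9:44084670-44084969 on the plus strand of GRCm38.p6, inside the gene's annotated span, and has no capitals because no motif was found.
Usp2 promoter window: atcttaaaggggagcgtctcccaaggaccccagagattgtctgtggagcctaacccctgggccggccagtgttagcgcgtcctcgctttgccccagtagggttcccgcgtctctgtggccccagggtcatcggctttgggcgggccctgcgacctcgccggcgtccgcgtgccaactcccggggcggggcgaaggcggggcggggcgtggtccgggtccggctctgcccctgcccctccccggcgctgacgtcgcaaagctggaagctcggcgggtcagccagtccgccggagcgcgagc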

How the data were processed

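The authors aligned the reads to mm10 with Cell Ranger 3.1.0, per the labels, and deposited raw UMI counts per gene and barcode, 1 matrix per library. The study's filter on cells (850 to 7800 genes, under 13% mitochondrial UMIs) was applied here. Clusters (scanpy 1.11.5, Leiden, resolution 0.8, 2000 variable genes) were named from at least 3 marker genes, each with a UMI in at least 25% of the cells. This naming rule was revised once after clusters had been seen, before any member value was computed. Likely doublets were kept and removed as an alternative. Summed UMIs per library and cell type were tested with edgeR 4.0.16 (TMM, filterByExpr, robust quasi-likelihood F test, Benjamini-Hochberg adjustment) in R 4.3.3, with 24 h cosine and sine terms, or with the library as a block for comparisons between cell types. DESeq2 1.42.0 and JTK_Cycle (periods 20, 24 and 28 h, in collection order) were alternatives. JTK_Cycle was rebuilt from its published description, and its p was not adjusted over genes. For amplitudes, levels per 10000 were fitted by a 24 h cosine and errors taken from the jackknife. Standard errors of log2 differences are the size divided by the root of F. The edgeR and JTK_Cycle code was tested on simulated data.

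The members and lists were chosen with earlier results of these data known. All 6 members were named in every comparison. Of the other lists, every gene called for rhythm was named, except 1 that is not reported here, and, for level, the 3 with the smallest adjusted p in each direction. For each member the 3 most correlated genes were named among those averaging at least 20 CPM. The replicate number marks the day of collection in the labels, so it pairs libraries by day, not by mouse. Median correlations of same-day libraries were 0.147, 0.038 and 0.107, against -0.073 for libraries of different days. Each fit was repeated with this number as a replicate block.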

Additional observations from a re-analysis of the deposited data

Results flagged for a closer look

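Values of the 6 genes in cells that no comparison used were set beside the highest library of fibroblasts or immune cells, and 9 lay above it. In the 735 muscle-like cells, Usp2 stood at 0.660 per 10000 (438 UMIs), above the 0.333 of the highest fibroblast library. Over 12 libraries with at least 20 such cells it ran from 0.278 to 1.08. In 49 cells that no marker list named, with Nppc, Chodl and Myf5 among the leading genes, Usp2 stood at 1.05 (49 UMIs), Csnk1d at 1.46 (68 UMIs), Csnk1e at 0.772 (36 UMIs) and Gsk3b at 2.08 (97 UMIs). In 27 endothelial-like cells, Gsk3b stood at 2.38 (53 UMIs), Csnk1e at 1.03 (23 UMIs), Csnk1d at 0.807 (18 UMIs) and Btrc at 0.314 (7 UMIs). Usp2 had 0 UMIs in the endothelial-like cells, which allows up to 0.135 per 10000, for counting error only. These values come from pooled cells with no test. The median cell of these 3 kinds held 6601, 9070 and 5491 UMIs, against 21896 in fibroblasts, and its part in the levels was not tested.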

How the results depend on the processing

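Over the alternatives, 490 of 493 member rhythm tests and 172 of 174 member level tests kept their side of the threshold, and none reversed. All 240 amplitudes moved by less than their jackknife error. Most of them come from fits with 1 library left out, which also give that error, so they could hardly have exceeded it. Only the fits with TMM-scaled totals or with clustering at resolution 2 were free to do so. In fibroblasts the number of members called was 1 (Csnk1e) with DESeq2 and with JTK_Cycle, and 0 to 1 when single libraries were left out. In level, 5 to 6 members were called. The number of genes called for rhythm in fibroblasts, 1633, was 1064 with zeitgeber time as a factor and 662 when thinned to the immune depth. In immune cells, 10 became 32 with DESeq2, 406 with JTK_Cycle, 5 with zeitgeber time as a factor, 7 to 16 with single libraries left out (16 without ZT14 replicate 1), and, chosen after seeing the data, 6 without both libraries that shared barcodes and 55 in macrophage-like cells. The rhythm difference, 35, became 94 with DESeq2, 57 in macrophage-like cells and 13 to 39 with single libraries left out (13 without ZT2 replicate 2, 15 without ZT2 replicate 1, 19 without ZT6 replicate 1 or ZT14 replicate 2, and 20 without ZT14 replicate 3). The cause was not tested, except that thinning and left-out libraries reduce the data.

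With the replicate number as a replicate block, 1688 genes were called for rhythm in fibroblasts, 8 in immune cells and 38 for the rhythm difference, with 0 members in each, so it changed no member's call. Depth limits the immune results: Usp2 had 1 to 32 UMIs per immune pseudobulk. For rhythm within a cell type, p-values measure the spread between mice of 1 age, sex and strain, with the day of collection mixed in. For comparisons of cell types, they measure how much the difference within a library varied between these mice.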
